A study of Mus musculus with 28 samples.

Results

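The interferon system was followed in 34 mouse genes that carry signals from the interferon receptors or are switched on by them. They were chosen by symbol, by their known role, from the 55291 genes of each table, with earlier results of these data known. They are 4 receptor chains, 4 kinase and STAT2 genes, 5 interferon regulatory factors, 3 cytoplasmic RNA sensors, 15 interferon-stimulated effectors and 3 feedback inhibitors. All 34 were found in each of the 3 tables of values. The tables hold 28 RNA-seq libraries in 8 groups. In a first culture experiment, wild-type LLC cells, a mouse Lewis lung carcinoma line, were kept for 36 h with 200 nM BAY-876 or vehicle (3 libraries each). BAY-876 is an inhibitor of the glucose transporter GLUT1. In a second experiment the same wild-type line had a first step of 24 h, with the inhibitor at 200 nM or without it, and a second of 32 h, with TNF at 20 ng/ml or without it, which made the groups BAY-876+TNF, TNF, BAY-876 and control (3 libraries each). Whether the inhibitor stayed on during the TNF step is not given, and the control libraries are untreated in the protocol and vehicle in a treatment label. In the third experiment, LLC-OVA-NGFR cells were grown under the skin of Rag1 knockout mice, activated OT1 T cells were injected on day 9, and OT1 cells and tumour cells were sorted from the tumours on day 16 (5 libraries each). Rag1 knockout hosts lack their own mature T and B cells and keep myeloid and NK cells. Every day 16 tumour had received OT1 cells, so there is no tumour without T cells to set beside them. The LLC cells are 1 line, and nothing in the labels says whether replicates are separate cultures or animals, so p-values measure only the spread between these libraries, which may be technical.

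Type I interferons bind the receptor chains IFNAR1 and IFNAR2, which carry the kinases TYK2 and JAK1. These activate STAT2, which joins IRF9 in a complex that binds the interferon-stimulated response element (ISRE) of genes such as Isg15 and Ifit1. Interferon gamma, made by T and NK cells, binds IFNGR1 and IFNGR2, works through JAK1 and JAK2 and the gamma-activated site (GAS), and induces Irf1 and the guanylate-binding proteins. Tumour cells that meet interferon gamma-producing T cells typically show this second programme, and TNF is known to raise Irf1 through NF-kappa B.

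The first experiment was deposited as DESeq2-normalized counts, with library sums of 16847994 to 17134536. The other experiments were deposited as TPM, transcript abundance on a per-length scale on which every library has the same sum, so depth is unknown there. In a TPM library 11884 to 13428 genes reached 1 TPM. Pearson's r between replicates of a group, over genes, was 0.984 to 0.989 in culture and 0.914 to 0.989 at day 16. The sum of 9 LLC tumour markers was 1307 to 1970 TPM in the 32 h libraries and 2106 to 2364 TPM in the day 16 tumour libraries, but 131 to 276 TPM in the OT1 libraries. The OT1 libraries held 5638 to 9120 TPM of 10 T cell markers, against 9.74 to 24.1 TPM in tumour libraries. They also held 1224 to 14976 TPM of 18 myeloid markers, all 18 of them above 0 in each library, against 44.5 to 140.4 TPM in tumour libraries. These bulk libraries cannot tell fewer cells of a type from less RNA per cell.

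The promoters of 5 of the genes are shown because the genes moved in different ways in the same cultures: Isg15 and Ifit1 were lower after either treatment, Bst2 was higher after either, Socs1 was higher after TNF, and Irf1 was lower after BAY-876 and higher after TNF. Each stretch covers the 100 bases that run from 150 to 51 bases before the transcript start, in RefSeq's promoter table for GRCm38.p6, written 5′ to 3′ on the gene's strand. Capitals mark matches, on either strand, to GAAANNGAA (the ISRE core) or TTCNNNGAA (GAS); overlapping matches form 1 run of capitals.
Isg15, chr4:156200869-156200968, minus strand: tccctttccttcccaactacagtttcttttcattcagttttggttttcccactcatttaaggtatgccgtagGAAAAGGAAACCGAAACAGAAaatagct
Ifit1, chr19:34640739-34640838, plus strand: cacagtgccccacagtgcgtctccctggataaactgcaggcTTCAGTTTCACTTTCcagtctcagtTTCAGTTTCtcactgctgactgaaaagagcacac
Bst2, chr8:71537523-71537622, minus strand: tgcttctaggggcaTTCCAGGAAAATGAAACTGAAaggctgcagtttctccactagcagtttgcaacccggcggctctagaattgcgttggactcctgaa
Socs1, chr16:10785587-10785686, minus strand: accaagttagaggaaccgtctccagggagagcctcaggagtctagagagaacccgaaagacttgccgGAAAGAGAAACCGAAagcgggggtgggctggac
Irf1, chr11:53769864-53769963, plus strand: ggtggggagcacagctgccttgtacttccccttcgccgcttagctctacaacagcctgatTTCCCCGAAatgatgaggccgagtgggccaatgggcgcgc

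In these stretches, Isg15 has 3 overlapping ISRE cores, Ifit1 has 3, of which 2 overlap, and Socs1 has 2 that overlap. In Bst2, 2 ISRE cores overlap each other, and the first of them overlaps a GAS. The Irf1 stretch has 1 GAS, 90 bases before the start. The ISRE core was found in 15 of the 31 genes that have a window in the table (250 bases before to 50 after the start), and in 8.56% of all 32851 windows. The GAS letters were found in 12 of 31, and in 8.30% of all windows. The letters GGNNTTTCC, the core of a kappa B site, were found in 6 of 31 (Ifngr2, Irf2, Irf3, Isg15, Ifit3 and Rsad2) and in 5.82% of all windows. Ifitm3, which was higher after either treatment, has ISRE cores that begin at bases 3 and 20 after its start. Oasl2, which was lower after either treatment, has none of the 3 motifs in its window. Ifngr1, Jak1, Jak2, Tyk2, Irf7 and Irf9 have none in their windows either. Only the first listed window of each gene was read, so any other starts were not searched, while the shares are over every window. Dhx58, Mx1 and Usp18 have no entry. A match is a string of letters and not a measured binding site.

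In untreated LLC cells the interferon system had its receiving end expressed: all 4 receptor chains and all 3 kinases were well above 1 TPM, and 8 of the 34 genes were below it. In control libraries at 32 h, Jak1 was 80.6, 81.9 and 79.6 TPM, the highest of the receptors and kinases. Ifnar2 was 38.0, 35.7 and 30.5 TPM, Ifngr1 26.4, 27.2 and 29.0 TPM and Ifnar1 22.5, 25.8 and 22.7 TPM. The genes with means below 1 TPM were Irf7, Ifih1, Ifit3, Mx1, Rsad2, Gbp2, Gbp3 and Usp18. Mx1, an antiviral GTPase, was listed at 0 in all 18 culture libraries. Ifitm3 and Bst2, membrane proteins that block virus entry and virus release, were the 2 genes above 100 TPM, at 246, 235 and 245 TPM and 101, 97.2 and 111 TPM. Of 21 interferon ligand genes none reached the minimum for testing in culture.

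BAY-876 at 32 h was set against control to ask what the GLUT1 inhibitor does to the pathway. Of the 34 genes, 26 reached 1 TPM in at least 3 libraries and were tested. Ifitm3 and Bst2 were higher in BAY-876 cells and 16 genes were lower, among them 3 of 4 receptor chains, all 3 kinases, Irf1, the RNA sensor Ddx58 and 7 of the 10 tested effectors. These 7 include Ifit1 and Oasl2, which were tested through the control group alone, so their place in the count already required a difference. Over all 12780 genes tested, 11.5% were called higher and 25.8% lower. The median log2 difference was -0.36 over the 26 genes and -0.089 over all genes. A call means an adjusted p under 0.05 (limma, Benjamini-Hochberg over all genes tested), and a log2 difference, which is also what a bare value after a gene name is, is on log2(TPM + 1), with its standard error after ±. Among all calls, 30.8% were in the higher direction, and 49.3% were with quantile normalization, under which 3 of the genes were called higher and 12 lower.

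Among receptors, Ifngr1, the ligand-binding chain of the interferon gamma receptor, was 16.0, 15.3 and 15.3 TPM in BAY-876 libraries, against 26.4, 27.2 and 29.0 TPM in control libraries. The groups did not overlap, and the log2 difference was -0.79 ± 0.083 (adjusted p = 3.64e-05). Ifnar2 (-0.39) and Ifnar1 (-0.28) fell less, and Ifngr2 was not called (-0.29, adjusted p = 0.162). Of the kinases, Tyk2 was 7.77, 7.77 and 7.27 TPM in BAY-876 libraries and 12.1, 12.1 and 13.6 TPM in control libraries, a log2 difference of -0.66 ± 0.077 (adjusted p = 6.84e-05). Jak1 was 58.0, 59.1 and 59.3 TPM with BAY-876, against 80.6, 81.9 and 79.6 TPM in control libraries (log2 difference -0.45 ± 0.040, adjusted p = 1.17e-05). Jak2 fell as well (-0.41). Every BAY-876 library was below every control library for each of the 3 kinases. Stat2, which carries the type I signal to the nucleus with IRF9, was not called (log2 difference -0.34 ± 0.17, adjusted p = 0.142).

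Irf1, the transcription factor that carries much of the interferon gamma response, was 7.77, 7.94 and 9.21 TPM in BAY-876 libraries and 14.0, 15.5 and 17.1 TPM in control libraries. All BAY-876 values lay below all control values, with a log2 difference of -0.83 ± 0.088 (adjusted p = 3.82e-05). Irf2, Irf3 and Irf9 were not called (-0.091, -0.32 and -0.11). Ddx58, which encodes the viral RNA sensor RIG-I, was 5.04, 5.16 and 4.36 TPM with BAY-876, against 11.7, 10.4 and 12.5 TPM in control libraries. That is less than the lowest control library in every case, and the log2 difference was -1.09 ± 0.090 (adjusted p = 6.23e-06). Dhx58, the related LGP2, was not called (-0.34), and Ifih1, which encodes MDA5, was too low to test.

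Isg15, a ubiquitin-like protein and one of the most strongly interferon-induced genes, was 2.36, 3.66 and 5.57 TPM in BAY-876 libraries, against 13.2, 14.9 and 12.3 TPM in control libraries. The highest BAY-876 library was below the lowest control library by more than the spread of either group, and the log2 difference was -1.62 ± 0.23 (adjusted p = 0.000245). Ifit1, which binds viral RNA, was 0.239, 0.294 and 0.0921 TPM with BAY-876 and 1.64, 1.54 and 1.94 TPM in control (log2 difference -1.16 ± 0.15, adjusted p = 0.000129). Oasl2, of the oligoadenylate synthetase family, was 0.326, 0.368 and 0.629 TPM with BAY-876 and 2.09, 2.49 and 1.94 TPM in control (log2 difference -1.14 ± 0.19, adjusted p = 0.000756). Ifit1 and Oasl2 reached the 1 TPM minimum in the control group alone, so their being tested already required a difference, and with a pseudocount of 0.1 their log2 differences were -2.61 and -2.11. For the same reason neither was tested once 1 control library was left out. The smaller falls of 4 genes depended on single libraries and were all lost with quantile normalization (adjusted p = 0.0627 for Ifit2, 0.109 for Oas1a, 0.174 for Samhd1, and 0.176 for Eif2ak2, at a difference of -0.15). The call of Ifit2 (-0.47) was lost without control replicate 3 or BAY-876 replicate 1 or 3, with adjusted p-values up to 0.0959. That of Oas1a (-0.50) was lost without any 1 library but BAY-876 replicate 3 (up to 0.137), and with no filter or the compared libraries alone (0.0724 and 0.0889). Samhd1 (-0.20) was lost without control replicate 1 or 3 or BAY-876 replicate 1 or 2, or with no filter (up to 0.120), and Eif2ak2 (-0.24) without control replicate 2 or 3 or BAY-876 replicate 1 or 2 (up to 0.0928). Eif2ak2 encodes the RNA-activated kinase PKR, and Samhd1 a nucleotide-depleting enzyme. Ifi35 was not called (-0.23), except without control replicate 2 or BAY-876 replicate 3 (adjusted p = 0.0446 and 0.0359), and Irf3 likewise except without control replicate 3 or BAY-876 replicate 3 (0.0317 and 0.0306).

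Ifitm3 went the other way, with 355, 352 and 358 TPM in BAY-876 libraries and 246, 235 and 245 TPM in control libraries. The spread within each group was a few per cent of its level, and the log2 difference was 0.55 ± 0.045 (adjusted p = 5.79e-06). Bst2 was 129, 115 and 118 TPM with BAY-876 and 101, 97.2 and 111 TPM in control, a smaller difference of 0.23 ± 0.058 (adjusted p = 0.00913) with no overlap. Of the feedback inhibitors, Socs3, which blocks JAK kinases at cytokine receptors, was 19.0, 21.1 and 19.5 TPM with BAY-876 and 28.7, 31.1 and 30.1 TPM in control (log2 difference -0.57 ± 0.098, adjusted p = 0.000955). Socs1, the main brake on interferon gamma signalling, was not called (0.19, adjusted p = 0.149), except with quantile normalization (0.33, adjusted p = 0.017).

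**Figure D1:**
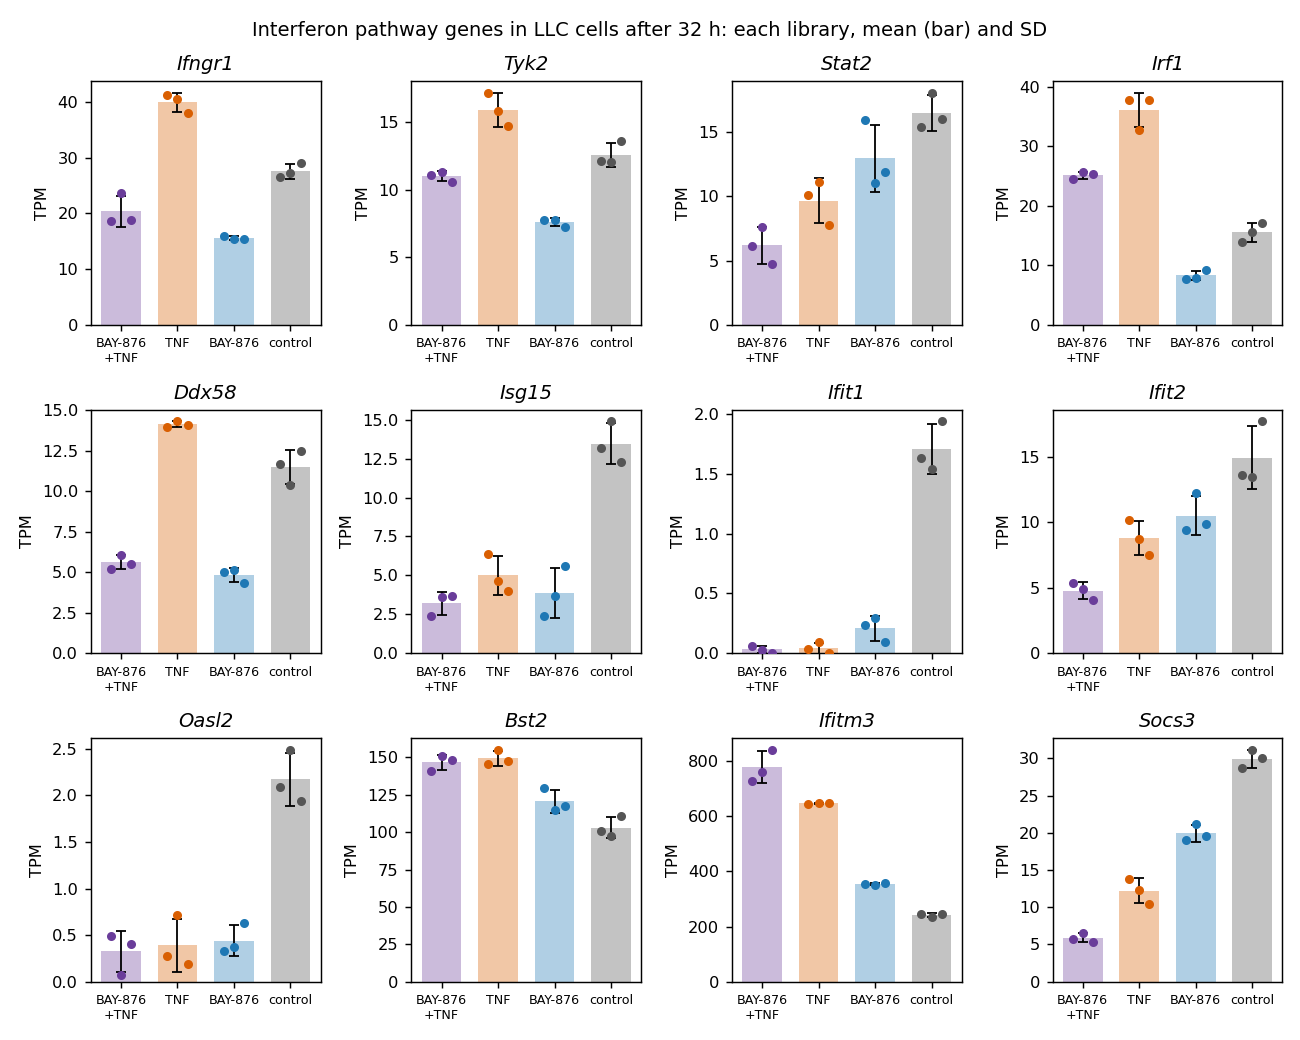
TPM of 12 genes in each 32 h library (points), with the group mean (bar) and SD, for BAY-876+TNF, TNF, BAY-876 and control. Isg15, Ifit1 and Oasl2 are lower in all 3 treated groups than in control, Ifitm3 is higher in all 3, and Irf1 and Ifngr1 are highest with TNF alone.

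In the first experiment, 36 h of BAY-876 was compared with vehicle in other libraries. Here 27 of the 34 genes reached 10 normalized counts in at least 3 libraries; Stat2 was higher and Ifit1 lower, and 25 were not called. Over all 12937 genes tested, 7.34% were called higher and 7.10% lower, and the median log2 difference was -0.14 over the 27 genes and -0.0012 over all. Stat2 was 222, 320.4 and 235 normalized counts in BAY-876 libraries, against 139, 175 and 141 in vehicle libraries. The groups did not overlap, the log2 difference was 0.76 ± 0.17 (adjusted p = 0.0189), and the call was lost without vehicle replicate 1 or 3 (adjusted p = 0.0691 and 0.0737). Ifit1 was 1.03, 6.44 and 5.04 normalized counts with BAY-876 and 22.1, 20.5 and 14.4 with vehicle (log2 difference -2.13 ± 0.55, adjusted p = 0.0339). Only vehicle libraries took Ifit1 past the minimum, its difference was -1.04 with a pseudocount of 10, and the call was lost without BAY-876 replicate 3 (adjusted p = 0.0534). In the first experiment the log2 difference is on log2(normalized count + 1). The summed fibroblast markers of the line were 21541 to 23193 normalized counts with BAY-876 and 16812 to 17863 with vehicle, and their part in these results was not tested.

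Isg15 was 14.4, 15.0 and 17.1 normalized counts in BAY-876 libraries and 30.7, 25.4 and 20.2 in vehicle libraries. All BAY-876 values were below all vehicle values, yet the log2 difference of -0.66 ± 0.29 did not pass (adjusted p = 0.153). Ifitm3 was 1097, 844 and 939 with BAY-876 and 805, 757 and 798 with vehicle, again without overlap and not called (log2 difference 0.28 ± 0.098, adjusted p = 0.0874). Ifngr1 was 487, 472 and 500.0 with BAY-876 and 547, 589 and 621 with vehicle (log2 difference -0.27 ± 0.082, adjusted p = 0.0607). Jak1, Jak2 and Ifnar1 had log2 differences of 0.054, 0.0081 and 0.014. Tyk2 had 0.29 (adjusted p = 0.117), on the other side of 0 from its 32 h difference. Leaving out 1 library brought a call for Ifngr2 (0.63, without vehicle replicate 1), Tyk2 (0.39, without BAY-876 replicate 1), and Ifitm3 and Samhd1 (0.37 and -0.28, without BAY-876 replicate 2). Of the 26 genes tested in both experiments, 17 (65.4%) had the same sign, 15 of them lower and 2 (Ifitm3 and Bst2) higher. Over all 12086 genes tested in both, 56.7% had the same sign, with 4184 lower in both and 2663 higher in both. The experiments differ in time, in the 24 h head start and in unit, so sizes are not set against each other.

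**Figure D2:**
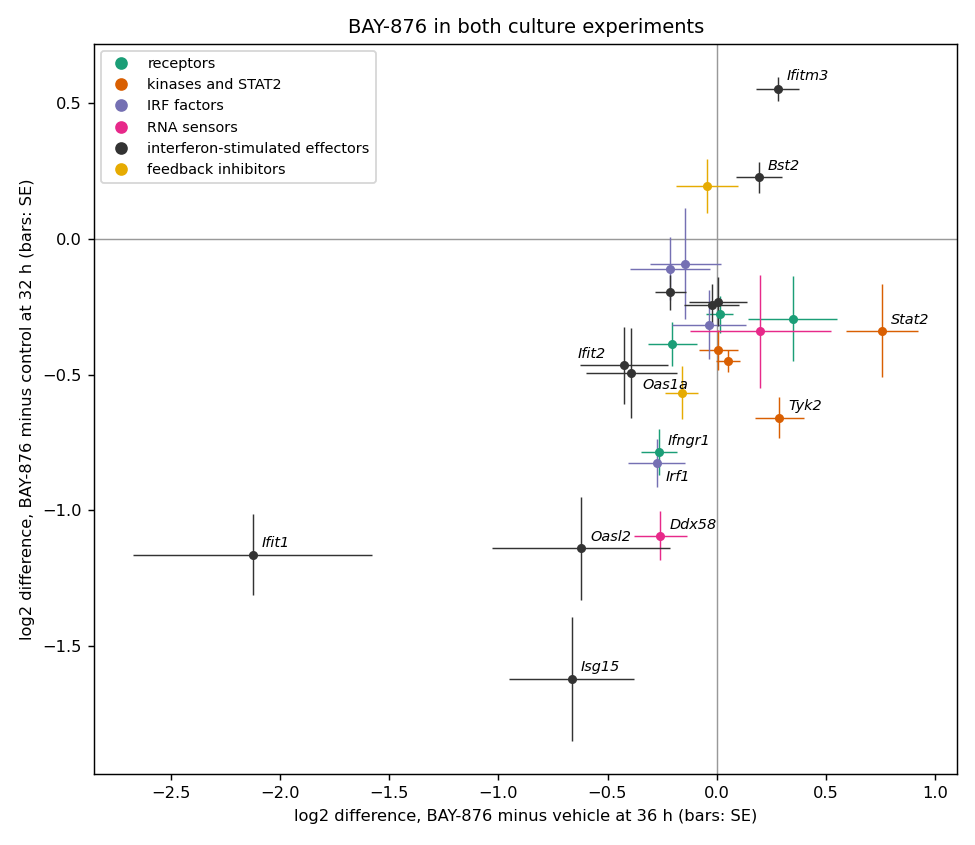
Log2 difference of BAY-876 from vehicle at 36 h (x axis) and from control at 32 h (y axis) for the 26 genes tested in both, with standard errors, coloured by role. Ifit1, Isg15, Oasl2 and Ddx58 lie lower on both axes, Ifitm3 and Bst2 higher on both, and Stat2 and Tyk2 on opposite sides of 0.

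TNF alone was set against control to ask how the cytokine moves the pathway in LLC cells. It raised Irf1, Ifitm3 and both chains of the interferon gamma receptor, and lowered Isg15, Ifit1, Ifit2, Oasl2, Stat2 and Socs3. Of the 26 tested genes 9 were higher and 8 lower, beside 19.4% of all genes higher and 26.1% lower. The 8 include Ifit1 and Oasl2, which were tested through the control group alone. The median log2 difference was 0.083 over the 26 genes and -0.058 over all genes.

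Irf1 was 37.7, 32.8 and 37.9 TPM in TNF libraries, against 14.0, 15.5 and 17.1 TPM in control libraries. Every TNF library was well above every control library, with a log2 difference of 1.17 ± 0.088 (adjusted p = 9.09e-07). Ifitm3 was 645, 649 and 649 TPM with TNF and 246, 235 and 245 TPM in control (log2 difference 1.42 ± 0.045, adjusted p = 8.96e-10), the largest rise of the 26. Ifngr1 was 41.3, 40.5 and 37.9 TPM with TNF and 26.4, 27.2 and 29.0 TPM in control (log2 difference 0.52 ± 0.083, adjusted p = 0.000349). Ifngr2, the signalling chain of the same receptor, was 31.2, 27.4 and 28.5 TPM with TNF and 22.2, 14.5 and 14.1 TPM in control. Control replicate 1 stood above its group, but the groups did not overlap, and the log2 difference was 0.77 ± 0.16 (adjusted p = 0.0018). Ifnar1 and Ifnar2, the type I receptor chains, were not called (-0.17 and 0.078), although Ifnar1 passed without TNF replicate 1 (-0.21, adjusted p = 0.0421). Bst2 (0.54 ± 0.058), Socs1 (0.54 ± 0.10) and Tyk2 (0.32 ± 0.077) rose too. Ddx58 (0.28) and Ifi35 (0.29) passed, but each call was lost without control replicate 2 (adjusted p = 0.105 and 0.0907). Ddx58 was also lost without any 1 TNF library, and Ifi35 without control replicate 3 or TNF replicate 1 or 2.

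On the falling side, Socs3 was 13.8, 12.3 and 10.5 TPM in TNF libraries and 28.7, 31.1 and 30.1 TPM in control libraries, with no overlap (log2 difference -1.24 ± 0.098, adjusted p = 1.33e-06). Isg15 was 6.38, 4.66 and 3.98 TPM with TNF, against 13.2, 14.9 and 12.3 TPM in control (log2 difference -1.28 ± 0.23, adjusted p = 0.000746). Ifit1 was 0.0331, 0.0914 and 0 TPM with TNF, at or close to 0 in each library, against 1.64, 1.54 and 1.94 TPM in control (log2 difference -1.38 ± 0.15, adjusted p = 1.63e-05). Oasl2 was 0.272, 0.711 and 0.187 TPM with TNF and 2.09, 2.49 and 1.94 TPM in control (log2 difference -1.21 ± 0.19, adjusted p = 0.000315). As above, Ifit1 and Oasl2 were tested through the control group alone, and with a pseudocount of 0.1 their differences were -3.72 and -2.35. Ifit2 was 10.1, 8.72 and 7.53 TPM with TNF and 13.6, 13.4 and 17.7 TPM in control (log2 difference -0.70 ± 0.14, adjusted p = 0.00189). Stat2 was 10.1, 11.1 and 7.75 TPM with TNF and 15.4, 18.1 and 16.1 TPM in control (log2 difference -0.73 ± 0.17, adjusted p = 0.00465). Neither pair of groups overlapped. Jak1 (-0.35 ± 0.040) and Eif2ak2 (-0.32 ± 0.078) fell by smaller amounts. Samhd1, Jak2, Irf2, Irf3, Irf9, Dhx58 and Oas1a were not called. Quantile normalization brought calls for Jak2 and Irf9 (0.23 and 0.43, limma adjusted p = 0.0136 and 0.00817). With replicate number as a block in the limma fit, Irf9 was called as well (adjusted p = 0.0442). Rsad2, the antiviral enzyme viperin, was too low to test here. Its means were 0.101 TPM with BAY-876, 0.214 TPM with TNF and 0.668 TPM in control. In the authors' deposited comparisons with control, its log2 fold change was -2.62 for BAY-876 (authors' adjusted p = 0.00036). For TNF it was -1.59 (authors' adjusted p = 0.0469). The other genes too low to test here did not pass there where listed. For BAY-876 these were Irf7, Ifih1, Ifit3 and Usp18 (authors' adjusted p = 0.736 to 0.943). For TNF they were the same genes with Gbp2 and Gbp3 (authors' adjusted p = 0.173 to 0.646). The summed fibroblast markers of the line were 362 to 425 TPM in TNF libraries and 847 to 869 TPM in control libraries, and their part in these results was not tested.

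With TNF present, the inhibitor was tested again by comparing BAY-876+TNF with TNF. Ifitm3 was higher and 11 of the 26 tested genes were lower, beside 10.4% of all genes higher and 23.6% lower. The median log2 difference was -0.30 over the 26 genes and -0.081 over all genes. Of the calls over all genes 30.5% were in the higher direction, and 47.6% with quantile normalization, which called 1 of the genes higher and 9 lower.

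Ddx58 was 5.22, 6.09 and 5.54 TPM in BAY-876+TNF libraries, against 14.0, 14.3 and 14.1 TPM in TNF libraries (log2 difference -1.20 ± 0.090, adjusted p = 3.56e-06). Ifngr1 was 18.7, 23.6 and 18.8 TPM with both agents and 41.3, 40.5 and 37.9 TPM with TNF (log2 difference -0.94 ± 0.083, adjusted p = 1.11e-05). The combination libraries lay below all TNF libraries for both genes. Irf1 was 24.5, 25.7 and 25.3 TPM with both agents and 37.7, 32.8 and 37.9 TPM with TNF (log2 difference -0.50 ± 0.088, adjusted p = 0.00122), so it stayed above its control level of 14.0 to 17.1 TPM. Socs3 was 5.78, 6.57 and 5.36 TPM with both agents and 13.8, 12.3 and 10.5 TPM with TNF, the lowest level of the 4 groups in every library (log2 difference -0.93 ± 0.098, adjusted p = 4.15e-05). Ifit2 was 5.38, 4.92 and 4.06 TPM with both agents and 10.1, 8.72 and 7.53 TPM with TNF (log2 difference -0.76 ± 0.14, adjusted p = 0.00187). Tyk2 (-0.49), Eif2ak2 (-0.41) and Jak1 (-0.21) fell as well. Stat2 (-0.58), Irf9 (-0.36) and Ifi35 (-0.33) passed the test with calls that depended on single libraries. Stat2 was lost without TNF replicate 1 or 2 or combination replicate 3 (adjusted p up to 0.0860), Irf9 without any TNF library or combination replicate 1 or 3 (up to 0.116), and Ifi35 without TNF replicate 1 or combination replicate 1 (up to 0.0542). Quantile normalization also ended the calls of Irf9 and Ifi35 (0.121 and 0.0721). Irf2 was called only without combination replicate 2, at -0.78 against TNF and -0.53 against BAY-876. Ifitm3 was 729, 761 and 842 TPM with both agents and 645, 649 and 649 TPM with TNF, all combination libraries above all TNF libraries (log2 difference 0.26 ± 0.045, adjusted p = 0.00102). Isg15, Ifit1 and Oasl2, already low with TNF, were not called (-0.51, -0.013 and -0.065).

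Turned round, TNF on top of BAY-876 was read by comparing BAY-876+TNF with BAY-876. Here 10 of the 26 genes were higher and 5 lower, beside 19.3% of all genes higher and 24.8% lower, with medians of 0.084 over the 26 genes and -0.048 over all genes. The summed fibroblast markers were 304 to 347 TPM with both agents and 838 to 850 TPM with BAY-876, and their part in these results was not tested. Irf1 was 24.5, 25.7 and 25.3 TPM in BAY-876+TNF libraries, against 7.77, 7.94 and 9.21 TPM in BAY-876 libraries (log2 difference 1.50 ± 0.088, adjusted p = 1.34e-07). Ifitm3 was 729, 761 and 842 TPM with both agents and 355, 352 and 358 TPM with BAY-876 (log2 difference 1.13 ± 0.045, adjusted p = 5.02e-09). Neither pair overlapped. Ifngr2 (0.91), Tyk2 (0.48), Ifnar2 (0.42), Socs1 (0.39), Jak2 (0.36), Ifngr1 (0.36) and Bst2 (0.28) also rose. Dhx58 (0.63, and 1.10 with a pseudocount of 0.1) rose in a call that was lost without BAY-876 replicate 1 or 2 or combination replicate 2 (adjusted p up to 0.105). Socs3 was 5.78, 6.57 and 5.36 TPM with both agents and 19.0, 21.1 and 19.5 TPM with BAY-876 (log2 difference -1.60 ± 0.098, adjusted p = 1.77e-07), and Stat2 was 6.16, 7.61 and 4.77 TPM with both agents and 16.0, 11.1 and 11.9 TPM with BAY-876 (log2 difference -0.96 ± 0.17, adjusted p = 0.000734). Ifit2 (-0.99) and Eif2ak2 (-0.48) fell. Jak1 was called lower at -0.11, a call lost without any BAY-876 library or combination replicate 2 or 3 (adjusted p up to 0.127). Ddx58 and Ifi35 were called higher only with quantile normalization (0.34 and 0.26, limma adjusted p = 0.0130 and 0.0387). All 4 comparisons within the 32 h experiment share libraries in pairs, so their values stand side by side and are no independent repeats.

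Whether the TNF response itself depended on BAY-876 was tested with the interaction term. Of the 26 genes, Ifit1 had a positive term (1.15 ± 0.21, adjusted p = 0.0195) and Ifitm3 a negative one (-0.29 ± 0.063, adjusted p = 0.0454), while 24 did not pass. Over all genes 0.736% had positive and 0.822% negative calls. The Ifit1 levels behind the term were 0.0643, 0.0308 and 0 TPM with both agents, 0.0331, 0.0914 and 0 TPM with TNF, 0.239, 0.294 and 0.0921 TPM with BAY-876 and 1.64, 1.54 and 1.94 TPM in control. In both single-agent groups every library was far below every control library. Ifit1 reached the 1 TPM minimum in control alone, and with both single-agent groups near 0 a positive term follows from those levels, so it is given as a description and is not read as a different TNF response. With a pseudocount of 0.1 the Ifit1 term had an adjusted p of 0.201, and it was lost without BAY-876 replicate 3 (0.0550) or TNF replicate 3 (0.0540), and not tested without 1 control library. The Ifitm3 term was lost in 13 of the 17 alternatives, among them leaving out any 1 of the 12 libraries other than combination replicate 3 (adjusted p up to 0.109). For Isg15 and Oasl2 the terms were 1.11 ± 0.32 (adjusted p = 0.127) and 1.08 ± 0.27 (adjusted p = 0.0781). For Irf1, Ifngr1 and Ddx58 they were 0.33, -0.16 and -0.10, none of them called. The Jak1 term (0.24) was called only with no filter or with quantile normalization (limma adjusted p = 0.0459 and 0.0461).

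**Figure D3:**
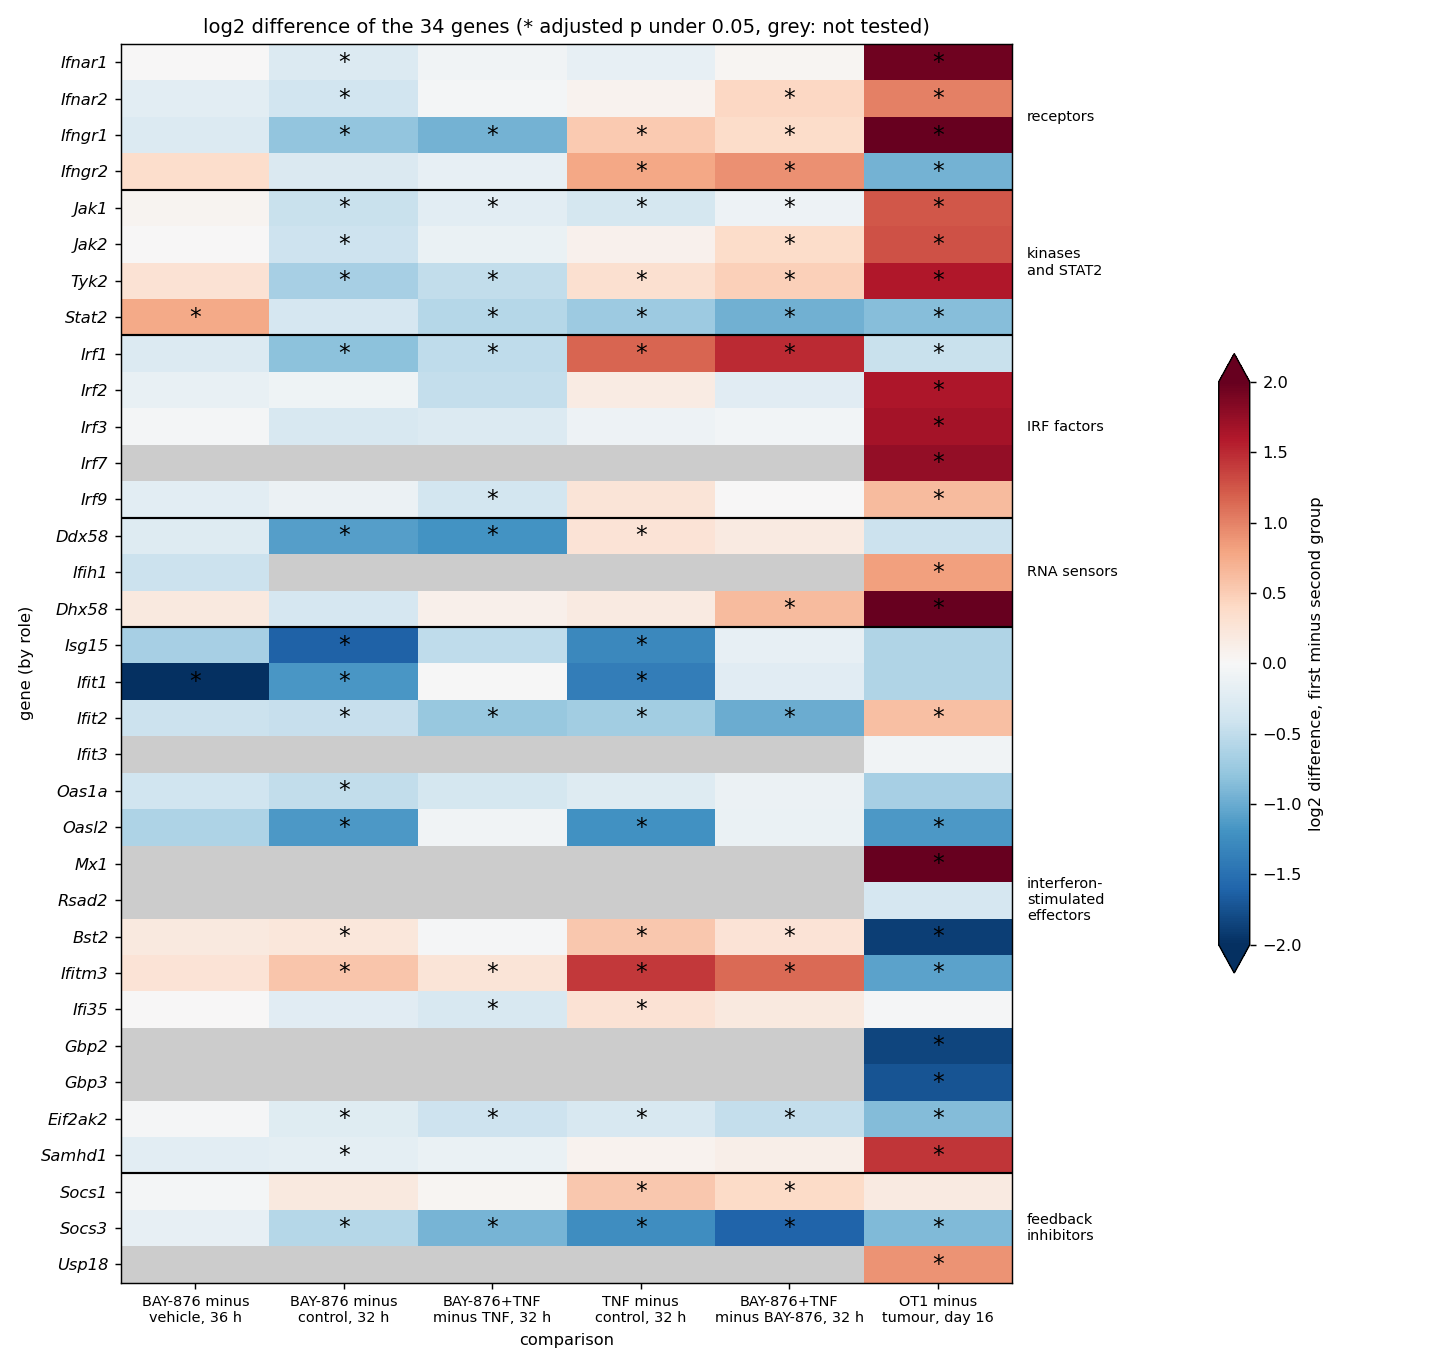
Log2 difference of the 34 genes (rows, by role) in 6 comparisons (columns, first group minus second), red for higher and blue for lower in the first group, with the colour scale ending at 2. Stars mark adjusted p under 0.05 and grey marks genes too low to test. The Irf1 row is blue with BAY-876, red with TNF, and the receptor and kinase rows are red in OT1 cells except Ifngr2.

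The rest of the pathway in culture was read from 5 further lists of 113 genes chosen by function. Among 44 other interferon-stimulated genes, 23 were tested at 32 h. In BAY-876 against control 1 was higher and 14 were lower, in TNF against control 5 and 6, in BAY-876+TNF against TNF 1 and 12, and in BAY-876+TNF against BAY-876 4 and 6. Beside these stand 11.5% of all genes higher and 25.8% lower for BAY-876, 19.4% and 26.1% for TNF, 10.4% and 23.6% for the combination against TNF, and 19.3% and 24.8% for it against BAY-876, so that the TNF counts lie near those of all genes. Plscr1, a phospholipid scramblase induced by interferon, averaged 39.4 ± 1.95 TPM in BAY-876 libraries and 53.9 ± 2.22 TPM in control libraries (log2 difference -0.44 ± 0.060, adjusted p = 0.000183). With TNF it averaged 81.4 ± 2.82 TPM, a rise over control of 0.59 ± 0.060 (adjusted p = 1.05e-05). Lgals9, which encodes galectin-9, fell with either agent, to 7.68 ± 0.749 TPM with BAY-876 and 6.62 ± 0.605 TPM with TNF, against 14.1 ± 0.662 TPM in control (-0.80 and -0.99). Of 22 other sensing and signalling genes 15 were tested, and 5 of them were lower with BAY-876 than in control, a share near the 25.8% of all genes. Sting1, the receptor for cyclic dinucleotides in DNA sensing, averaged 18.8 ± 1.35 TPM with BAY-876 and 37.5 ± 9.74 TPM in control (log2 difference -0.93 ± 0.19, adjusted p = 0.00242). Mavs, the adaptor of the RNA sensors, fell with either agent (-0.36 with BAY-876 and -0.52 with TNF). At 36 h, 3 of 16 tested genes of this list were lower, beside 7.10% of all genes, and Cgas, the DNA sensor, averaged 169 ± 19.4 normalized counts with BAY-876 and 266 ± 25.4 with vehicle (log2 difference -0.65 ± 0.13, adjusted p = 0.0133). Among 7 tested negative regulators, BAY-876+TNF had 5 lower than TNF, beside 23.6% of all genes, among them Pias1 and Pias4 (-0.47 and -0.36), which restrain cytokine signalling. At 36 h Pias4 was higher with BAY-876 than with vehicle (log2 difference 0.34 ± 0.098, adjusted p = 0.0489). Without TNF at 32 h it was lower with BAY-876 than in control (-0.22 ± 0.054, adjusted p = 0.00711), so its direction differed between the experiments. Parp9, an ADP-ribosyltransferase of the interferon response, averaged 2.34 ± 0.223 TPM in BAY-876+TNF libraries and 5.16 ± 0.417 TPM in TNF libraries (log2 difference -0.88 ± 0.098, adjusted p = 5.58e-05), and the IRF3 kinase Tbk1 fell too (-0.33). Irf5, a regulatory factor of inflammatory genes, averaged 3.52 ± 0.325 TPM in BAY-876+TNF libraries and 0.563 ± 0.274 TPM in BAY-876 libraries (log2 difference 1.55 ± 0.18, adjusted p = 3.22e-05). Of 17 GTPases induced by interferon gamma 3 were tested, and Irgm2 was lower with BAY-876 (-0.75) and with TNF (-0.49). Its means lay close to the 1 TPM minimum, at 0.720 TPM with BAY-876, 1.07 TPM with TNF and 1.90 TPM in control.

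The levels in tumour cells from the mice stood apart from those in culture: none of the 34 genes averaged below 1 TPM in sorted tumour cells. The 2 tables were normalized separately and the cells differ in line, host and handling, so levels are set side by side without a test. Gbp2, a guanylate-binding protein induced by interferon gamma, was 406, 492, 483, 380.3 and 389 TPM in the day 16 tumour libraries, against 0.0355, 0.102 and 0.196 TPM in the 32 h control cultures. Gbp3 was 129, 203, 219, 138 and 133 TPM in tumour libraries and 0.0338, 0.209 and 0.0935 TPM in control cultures. Irf1 was 143, 178, 191, 163 and 165 TPM in tumour libraries and 14.0, 15.5 and 17.1 TPM in control cultures. For these 3 genes even the lowest tumour library was many times the highest culture. Oasl2 ran from 57.1 to 128 TPM in tumour libraries and from 1.94 to 2.49 TPM in control cultures, Stat2 from 53.3 to 121 and 15.4 to 18.1 TPM, and Irf7 from 11.8 to 32.6 and 0.516 to 0.826 TPM. The receptors and kinases were closer together: Ifngr1 was 22.2 to 30.8 TPM in tumour libraries and 26.4 to 29.0 TPM in cultures, Jak2 10.5 to 11.9 and 9.90 to 10.6 TPM, and Jak1 58.3 to 70.5 and 79.6 to 81.9 TPM. Ifit2 was also close, at 11.5 to 19.3 TPM in tumour libraries and 13.4 to 17.7 TPM in cultures. The summed myeloid markers of the tumour libraries were 44.5 to 140.4 TPM, against 13.6 to 15.4 TPM in control cultures, and their part in these levels was not tested.

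**Figure D4:**
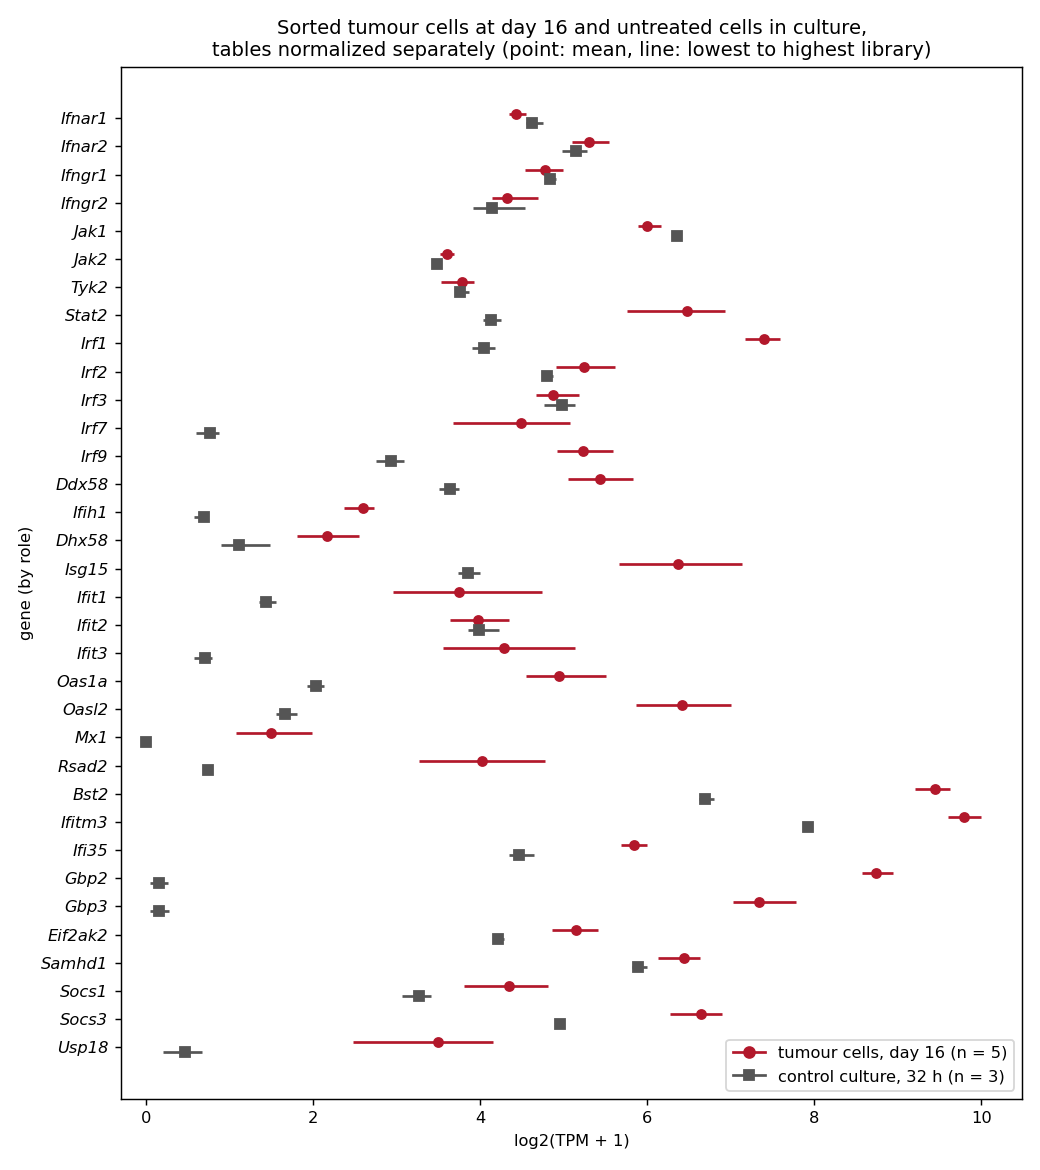
Level of the 34 genes, as log2(TPM + 1), in day 16 tumour libraries (red circles, n = 5) and in 32 h control cultures (grey squares, n = 3); points are means and lines run from the lowest to the highest library. Receptors and kinases lie close together in both, while Gbp2, Gbp3, Oasl2, Irf1 and Irf7 lie far to the right in tumour cells.

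OT1 T cells were compared with tumour cells from the same experiment, which is a comparison of different cell types. All 34 genes were tested; 16 were higher in OT1 cells, 10 lower and 8 not called. Over all 13511 genes tested, 30.1% were called higher and 44.4% lower, and the median log2 difference was 0.080 over the 34 genes and -0.21 over all genes. Higher in OT1 cells were 3 of 4 receptor chains, all 3 kinases, 4 of 5 regulatory factors and 2 of 3 RNA sensors, but 3 of 15 effectors, 6 of which were lower. The myeloid sums in OT1 replicates 1 to 5 were 1224, 5516, 2670, 3654 and 14976 TPM, against at most 140.4 TPM in a tumour library. Results were therefore also read without OT1 replicates 2, 4 and 5, a choice made after seeing the data. This left 13 genes higher and 11 lower, and moved the median of all genes to -0.33. Only 12054 genes then passed the filter, and leaving out any 1 OT1 library already moved the median to between -0.32 and -0.29. The OT1 libraries left were replicates 1 and 3, and replicate 1 was the lowest OT1 library for 27 of the 34 genes. The part of that low library in the values without the 3 libraries was not tested.

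Ifngr1 was 276, 373, 328, 278 and 389 TPM in OT1 libraries, against 28.4, 22.2, 23.3, 28.7 and 30.8 TPM in tumour libraries. Every OT1 library was many times every tumour library, and the log2 difference of 3.57 ± 0.13 (adjusted p = 3.61e-10) was the largest of the 34. Its partner Ifngr2 was 5.52, 14.1, 4.47, 8.70 and 22.2 TPM in OT1 libraries and 19.4, 16.6, 17.6, 17.7 and 24.9 TPM in tumour libraries. OT1 replicate 5, with the most myeloid transcripts, reached into the tumour range, and OT1 replicates 1 and 3, with the fewest, were lowest. The difference of -0.95 ± 0.34 (adjusted p = 0.0259) was -1.74 without the 3 OT1 libraries and was lost without OT1 replicate 1 or 3 (adjusted p = 0.0612 and 0.0619) or tumour replicate 5 (0.0617). Ifnar1 was 69.7, 86.8, 77.2, 75.1 and 104 TPM in OT1 libraries and 19.4, 20.4, 19.5, 21.2 and 22.4 TPM in tumour libraries (log2 difference 1.94 ± 0.11, adjusted p = 2.21e-08). Ifnar2 rose by 1.00 ± 0.20 on the log2 scale, and by 0.65 without the 3 OT1 libraries.

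Jak1 was 146, 162, 148, 141 and 155 TPM in OT1 libraries and 58.3, 65.3, 64.0, 58.5 and 70.5 TPM in tumour libraries, with no overlap and little spread (log2 difference 1.24 ± 0.076, adjusted p = 4.95e-08). Tyk2 (1.60 ± 0.11) and Jak2 (1.27 ± 0.13) were higher as well. Stat2 was 33.5, 58.4, 46.4, 48.0 and 60.7 TPM in OT1 libraries, against 53.3, 121, 119.8, 87.7 and 78.6 TPM in tumour libraries. It was lower in OT1 cells (log2 difference -0.85 ± 0.23, adjusted p = 0.00523), although OT1 replicates 2 and 5 lay above tumour replicate 1. Among the regulatory factors, Irf7, which drives the late wave of type I interferon, was 34.4, 101, 89.5, 67.4 and 111 TPM in OT1 libraries and 11.8, 30.6, 32.6, 21.6 and 17.4 TPM in tumour libraries (log2 difference 1.76 ± 0.34, adjusted p = 0.000549). Only OT1 replicate 1 came near the tumour range. Irf3 (1.66 ± 0.098), Irf2 (1.62 ± 0.13) and Irf9 (0.64 ± 0.16) were higher too. Irf1 was 98.2, 154, 115, 107 and 153 TPM in OT1 libraries and 143, 178, 191, 163 and 165 TPM in tumour libraries, lower in OT1 cells with some overlap (log2 difference -0.44 ± 0.14, adjusted p = 0.0124).

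Of the RNA sensors, Dhx58 was 12.6, 29.7, 25.1, 23.9 and 29.6 TPM in OT1 libraries and 3.15, 4.47, 4.86, 2.85 and 2.49 TPM in tumour libraries (log2 difference 2.44 ± 0.24, adjusted p = 1.97e-06). The lowest OT1 library was above the highest tumour library. Ifih1 was 5.11 to 13.6 TPM in OT1 libraries and 4.16 to 5.65 TPM in tumour libraries (log2 difference 0.82 ± 0.21, adjusted p = 0.00422), and was not called without the 3 OT1 libraries (0.38, adjusted p = 0.134). Ddx58 was 24.2, 37.2, 35.3, 26.8 and 34.9 TPM in OT1 libraries and 32.1, 54.0, 56.0, 42.2 and 33.3 TPM in tumour libraries, just short of a call (log2 difference -0.43 ± 0.18, adjusted p = 0.0514). It was called without OT1 replicate 2 or 5 or tumour replicate 1 or 5 (-0.49, -0.47, -0.53 and -0.51). With replicate number as a block in the limma fit, Ddx58 was called lower as well (adjusted p = 0.0164).

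Among the 15 effectors, Gbp2 was 77.3, 152, 93.8, 134 and 159.8 TPM in OT1 libraries, against 406, 492, 483, 380.3 and 389 TPM in tumour libraries (log2 difference -1.84 ± 0.19, adjusted p = 3.6e-06). Gbp3 was 45.3, 51.3, 48.7, 47.2 and 46.1 TPM in OT1 libraries and 129, 203, 219, 138 and 133 TPM in tumour libraries (log2 difference -1.73 ± 0.15, adjusted p = 7.82e-07). Bst2 was 151, 198, 183, 218 and 194 TPM in OT1 libraries and 591, 788, 731, 708 and 675 TPM in tumour libraries (log2 difference -1.88 ± 0.11, adjusted p = 2.79e-08). In these 3 genes all OT1 libraries were far below all tumour libraries, and the differences without the 3 OT1 libraries were -2.31, -1.75 and -2.05. Eif2ak2 was also lower in every OT1 library (-0.87 ± 0.15). Ifitm3 was 201, 564, 333, 431 and 825 TPM in OT1 libraries and 817, 999, 1018, 849 and 774 TPM in tumour libraries (log2 difference -1.07 ± 0.30, adjusted p = 0.00725). The OT1 values of Ifitm3 followed the order of the myeloid sums, with replicate 1 lowest and replicate 5 inside the tumour range, and the difference was -1.77 without the 3 libraries. Oasl2 was lower too (-1.14 ± 0.31, and -1.72 without the 3 libraries).

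Mx1, at 0 in culture, was 15.7, 26.2, 27.5, 15.3 and 22.2 TPM in OT1 libraries and 1.12, 2.95, 2.97, 1.23 and 1.38 TPM in tumour libraries, with no overlap (log2 difference 2.95 ± 0.24, adjusted p = 4.77e-07). Samhd1 was 143, 301, 212, 197 and 392 TPM in OT1 libraries and 69.1, 89.7, 88.4, 87.2 and 98.1 TPM in tumour libraries (log2 difference 1.44 ± 0.23, adjusted p = 0.000132), highest in OT1 replicate 5 and lowest in OT1 replicate 1, and it was 1.01 without the 3 libraries. Ifit2 was called higher (0.59 ± 0.17), and not without the 3 libraries (0.44, adjusted p = 0.0937). Isg15 was 29.2, 80.1, 65.8, 49.2 and 56.1 TPM in OT1 libraries and 55.5, 129, 140.0, 72.2 and 49.6 TPM in tumour libraries. The groups overlapped widely and the difference was not called (log2 difference -0.61 ± 0.33, adjusted p = 0.118), and neither were those of Ifit1 (-0.60), Ifit3 (-0.076), Oas1a (-0.67), Rsad2 (-0.34) and Ifi35 (-0.019). Oas1a was called without OT1 replicate 5 (-0.85, adjusted p = 0.0266) and without the 3 libraries (-1.23, adjusted p = 0.00886). With replicate number as a block in the limma fit, Isg15, Ifit1 and Oas1a were called lower (adjusted p = 0.0148, 0.0176 and 0.0411). Of the inhibitors, Socs3 was 30.3, 63.6, 43.6, 45.0 and 116 TPM in OT1 libraries and 83.8, 112, 114, 76.4 and 118 TPM in tumour libraries (log2 difference -0.88 ± 0.30, adjusted p = 0.0181). Socs3 was high in OT1 replicate 5 alone, and the difference was -1.43 without the 3 libraries. Usp18, which removes ISG15 from proteins and blocks IFNAR2, was called higher (log2 difference 0.89 ± 0.34, adjusted p = 0.0301). That call was lost in 6 alternatives, without OT1 replicate 2 or 3, tumour replicate 1 or 5, or the 3 OT1 libraries, and with no filter (highest adjusted p = 0.186). Socs1 was not called (0.18).

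**Figure D5:**
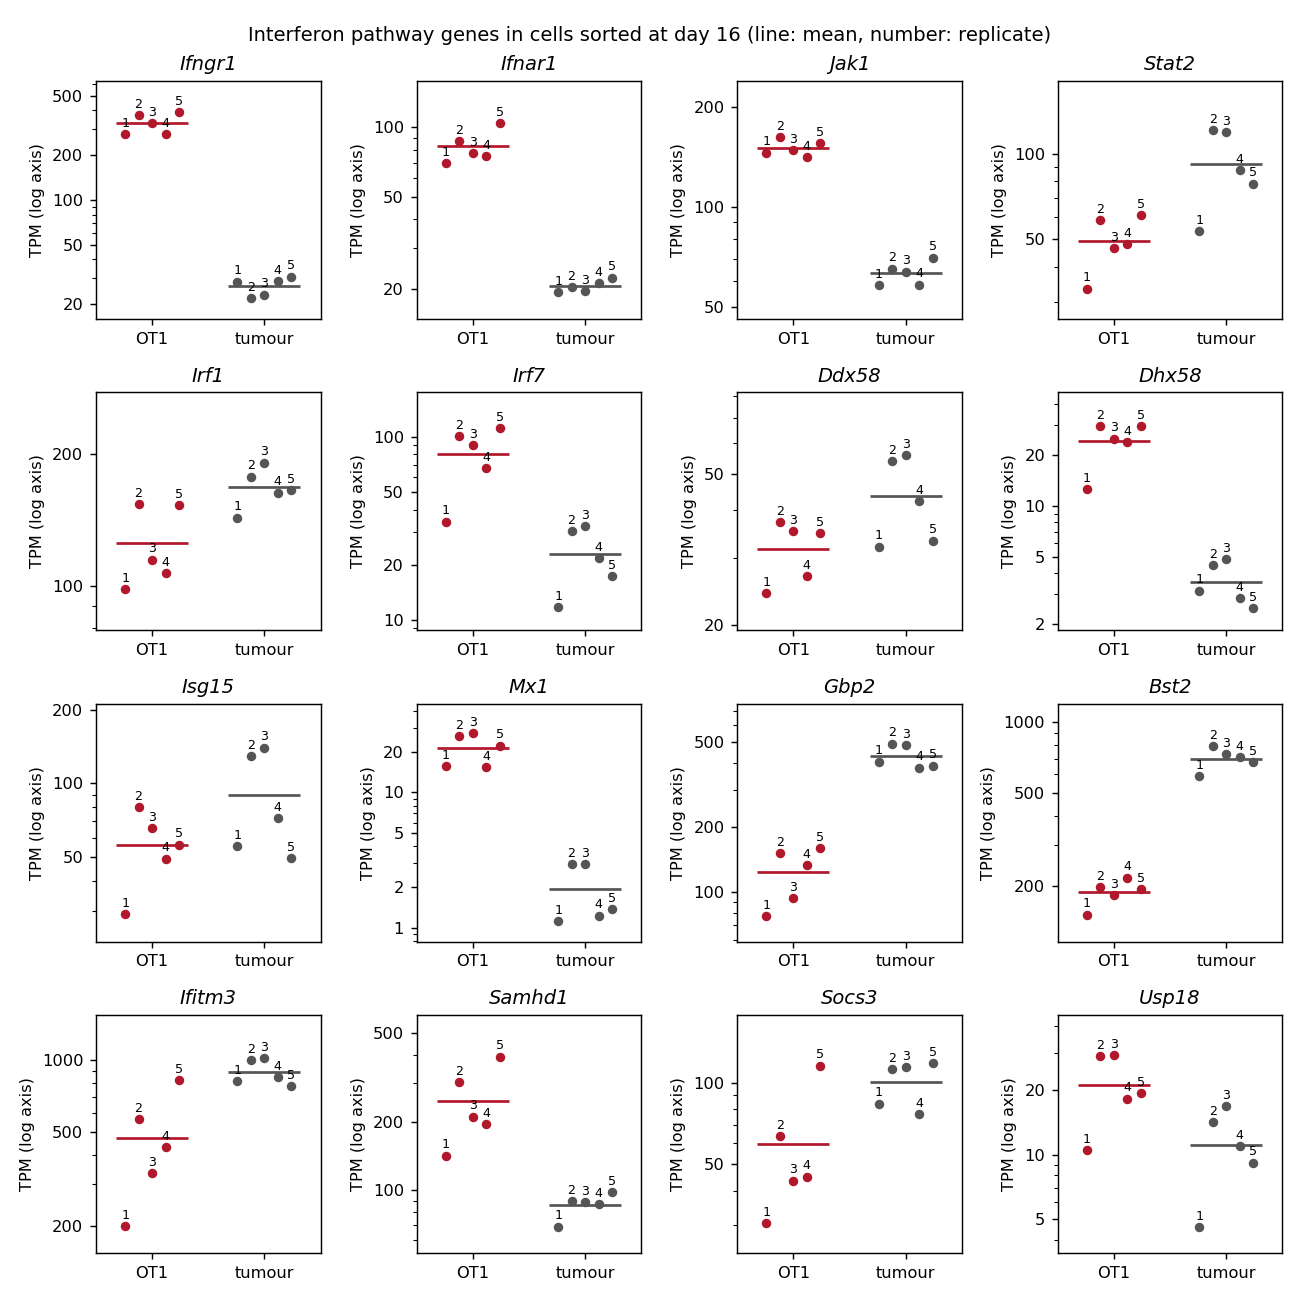
TPM (log axis) of 16 genes in each day 16 library, OT1 cells on the left and tumour cells on the right of each panel; numbers are replicates and lines are means. Ifngr1, Ifnar1, Jak1, Dhx58 and Mx1 are higher in all OT1 libraries, Gbp2 and Bst2 lower in all, and OT1 replicate 1 is the lowest OT1 library for most genes.

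Within each sorted group single libraries were low or high for many of the 34 genes at once. OT1 replicate 1 was the lowest OT1 library for 27 of the 34 genes, and for 14 of the 15 effectors. Tumour replicate 1 was the lowest tumour library for 23 genes, and for 11 effectors, while tumour replicate 3 was the highest for 17 genes. The same counts were not made over all genes, so they are not read as particular to these 34. The mean log2(TPM + 1) of the 15 effectors was 4.78, 5.86, 5.57, 5.39 and 5.77 in OT1 replicates 1 to 5, and 5.47, 6.18, 6.31, 5.71 and 5.66 in tumour replicates 1 to 5. The T cell sum was lowest in OT1 replicate 5, at 5638 TPM, where the myeloid sum was highest. Erythroid markers were 65.0 to 2781 TPM in OT1 libraries and 10.1 to 899 TPM in tumour libraries. The part of these cells in the results was not tested.

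Ifng, the ligand of the IFNGR chains, was the 1 ligand of 21 that was tested at day 16. It was 279, 269.9, 299.5, 181 and 133 TPM in OT1 libraries and 0, 0, 0, 0 and 0.0974 TPM in tumour libraries, where 4 of 5 libraries listed it at 0. Ifng passed the minimum through the OT1 libraries alone, so its being tested already required a difference, and no test is given. Of 16 tested GTPases induced by interferon gamma 7 were higher in OT1 cells and 7 lower, beside 30.1% of all genes higher and 44.4% lower here and for the lists that follow. Gbp8 averaged 46.5 ± 6.38 TPM in OT1 libraries and 4.23 ± 0.892 TPM in tumour libraries, and Gvin1 79.6 ± 11.5 and 12.5 ± 2.90 TPM. In the other direction, Tgtp1, an immunity-related GTPase, averaged 22.4 ± 3.85 TPM in OT1 libraries and 78.1 ± 11.4 TPM in tumour libraries (log2 difference -1.76 ± 0.14, adjusted p = 3.3e-07). Of 42 other interferon-stimulated genes 18 were higher and 8 lower. Shisa5, with the smallest p of that list, averaged 3712 ± 438 TPM in OT1 libraries and 223 ± 26.2 TPM in tumour libraries, and Epsti1 139.7 ± 29.1 and 1.48 ± 0.665 TPM. Among 21 other sensing and signalling genes 11 were higher and 4 lower. Irf8 and Irf4, regulatory factors of lymphoid and myeloid cells, averaged 251 ± 19.1 and 52.6 ± 14.2 TPM in OT1 libraries, against 4.71 ± 1.07 and 0.0448 ± 0.0377 TPM in tumour libraries. Irf4, too, was tested through the OT1 libraries alone. Of 9 negative regulators 5 were higher and 1 lower. Ptpn6, the phosphatase SHP-1 of blood cells, averaged 306 ± 23.8 TPM in OT1 libraries and 5.74 ± 2.66 TPM in tumour libraries, and Cish, a STAT5-induced inhibitor, 30.4 ± 8.62 and 0.996 ± 0.599 TPM. Macrophages also express Irf8, Ptpn6 and Epsti1, and the share of the myeloid transcripts in these differences was not tested.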

How the data were processed

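RNA was measured by RNA-seq in 28 libraries of 8 groups. Per the submitters' processing notes, the tools were STAR 2.6.1d, Salmon 0.14.1 (36 h) or 0.13.1 (32 h and day 16) and DESeq2 1.34.0, with mm10. The 36 h table holds read counts that the authors divided by DESeq2 size factors, per its name and values (a normalized signal, not raw counts). The other tables hold TPM deposited by the authors, which carry no depth. The authors' deposited table of 32 h comparisons gives log2 fold changes and p-values, quoted in the results only for Rsad2 and other genes too low to test here. For BAY-876 against control, the calls of Ifnar1, Oas1a, Eif2ak2 and Samhd1 did not pass there (authors' adjusted p = 0.0668, 0.255, 0.185 and 0.286). Nor did Jak1 for the combination against BAY-876 (0.535), or Jak1, Irf9 and Ifi35 against TNF (0.0805, 0.201 and 0.176). Genes of other sign there (Irf2 for BAY-876 and Ifnar1, Ifnar2 and Bst2 for the combination against TNF) were not called here. A further 24 columns with no matching label were not used. Groups follow titles; 2 combination libraries carry other inhibitor names (BAY-877, BAY-878) in a treatment label.

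From the deposited values, log2(value + 1) was computed and tested with limma 3.58.1 in R 4.3.3 (trend; 1 fit of 12 libraries at 32 h; Benjamini-Hochberg over all genes tested; threshold 0.05). Genes needed 1 TPM, or 10 normalized counts at 36 h, in 3 libraries (5 at day 16). The file units call for this rather than a count model. The script was tested on simulated data. The alternatives tried were a pseudocount of 0.1 TPM (10 at 36 h), dropping or tightening the filter (means of 5 TPM or 100 counts), quantile normalization, a replicate block, fits of the compared libraries alone and leaving out each library. Leaving aside 3 OT1 libraries with most myeloid transcripts was added after seeing the data. Ifit1, Ifit3, Oas1a, Ifitm3 and the Gbp genes have near-identical relatives, so their estimated reads are uncertain. The genes and lists were chosen with earlier results of these data known. Genes of a further list were named from the 3 called with the smallest p per list and comparison.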

Additional observations from a re-analysis of the deposited data

Results flagged for a closer look

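The interaction term of BAY-876 and TNF, a test of whether the TNF difference differed with BAY-876, passed for 2 of the 26 genes tested (limma, adjusted over all genes). For Ifit1 the term was 1.15 on the log2 scale (adjusted p = 0.0195), with all 3 control libraries above all 9 treated libraries. Ifit1 was tested through the control group alone, both single-agent groups were near 0 TPM, and with a pseudocount of 0.1 the adjusted p was 0.201, so the term is not read as a different TNF response. For Ifitm3 it was -0.29 (adjusted p = 0.0454), and 13 of 17 alternatives lost the call. The mean of Ifitm3 was 778 TPM with both agents against 355 TPM with BAY-876, and 648 TPM with TNF against 242 TPM in control. Among the 68 sets of 5 day 16 libraries (34 genes, 2 groups), no single library stood apart by Dixon's test, where chance gives about 1 in 20.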

How the results depend on the processing

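No difference of the 34 genes changed direction in a call under the alternatives run. Calls kept wherever the gene was tested were 14 of 18 for BAY-876 against control, 15 of 17 for TNF against control, 13 of 15 and 9 of 12 for the combination against BAY-876 and against TNF, and 22 of 26 for OT1 against tumour. Against 2 calls at 36 h, there was 1 with the stricter filter, 1 with the replicate block (Ifit1 was lost, adjusted p = 0.0520), and 0 to 4 in all, newly called genes included, when 1 library was left out (limma; 6 genes at an unadjusted p under 0.05 where the count was 0). Against 2 interaction calls, there was 1 with the other pseudocount, 1 with the stricter filter, 1 with the replicate block (Ifitm3 lost, adjusted p = 0.0539), and 0 to 2 when 1 library was left out (7 to 11 genes at an unadjusted p under 0.05 where the count was 0). The cause was not tested. Over all genes, leaving out 1 library gave 648 to 2394 calls at 36 h, against 1868, and 110 to 250 interaction calls, against 199. Same-numbered replicates shared no deviation beyond r of 0.120 (range -0.192 to 0.120 at 32 h, -0.074 to -0.019 at 36 h), and the main fits did not pair libraries by number. At day 16 every same-numbered r was positive, 0.045 to 0.111, against -0.174 to 0.113 for other pairs. Erythroid sums there were highest in replicate 4, next in replicate 1 and lowest in replicate 2 in both cell types. Whether equal numbers share a tumour is not given, so the unpaired day 16 results have this limit. With the block, day 16 had 16 genes higher and 14 lower, as Ddx58, Isg15, Ifit1 and Oas1a were then called (adjusted p = 0.0164, 0.0148, 0.0176 and 0.0411). Depth is unknown for the TPM tables, and genes at a few normalized counts, such as Ifit1 at 36 h, rest on few reads. Without the day 16 filter the median of all genes moved to -0.019, and without any 1 OT1 library to between -0.32 and -0.29. The filter of 5 libraries then kept 12467 to 12489 genes, against 13511.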

Other observations

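Among the pathway genes outside the 34, Ikbke, which encodes the kinase IKK-epsilon upstream of IRF3 and NF-kappa B, had the clearest difference of the TNF response with BAY-876. It was 7.60, 9.91 and 7.81 TPM in BAY-876+TNF libraries and 6.97, 5.91 and 6.80 TPM in BAY-876 libraries, against 16.1, 17.4 and 17.7 TPM in TNF libraries and 6.20, 7.12 and 6.35 TPM in control libraries. TNF libraries stood well above the other 9. The rise with TNF was 0.32 on the log2 scale with the inhibitor (adjusted p = 0.0282, limma) and 1.26 without it (adjusted p = 1.85e-06). The interaction term was -0.95 ± 0.15 (adjusted p = 0.00924), the 1 call among the 5 further lists in that comparison. BAY-876 alone left Ikbke at a difference of -0.00037 from control (adjusted p = 0.999). Ikbke was named because it was the 1 call, after its value was seen.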
